A study of Mus musculus with 30 samples.

Results

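The BMP, activin and TGF-beta pathway genes were taken as the rows of the deposited FPKM table whose symbol belongs to the Bmp, Gdf, Inhb, Tgfb, Acvr, Bmpr, Tgfbr or Smad series, 48 of 20889 genes: 27 ligands, the protease gene Bmp1, 12 receptors and 8 SMADs. FPKM are fragment counts divided by transcript length and library size, so levels can be set side by side between genes and between groups. Any further scaling between libraries is not stated, and comparisons between groups carry that limit. RNA was sequenced from testis cells of C57BL/6 mice aged 0, 7, 12 or 14 days after birth (P0, P7, P12, P14). Groups sorted for a green fluorescent reporter were P7 ID4-GFP, P7 OCT4-GFP and P0 OCT4-GFP, in which the fluorescence marks cells that use the Id4 or the Oct4 (Pou5f1) reporter gene. A group labelled P7 VASA THY1 combines a germ cell and a surface marker; its label gives P7, while the protocol describes VASA-GFP cells at P0 only, so how these cells were selected is uncertain. Groups enriched on magnetic beads were KIT cells at P7, P12 and P14, which carry the receptor of differentiating spermatogonia, and THY1 cells at P0, P7, P12 and P14, a preparation used to enrich undifferentiated spermatogonia. Apart from the reporter genes of the GFP-sorted groups, no group was labelled with a mutation or a treatment. The number of animals behind each group is not stated in the labels.

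The table holds 1 value per gene and group. The columns P7 KIT, P12 KIT, P0 THY1, P7 THY1 and P12 THY1 stand for 2 libraries each and the other 6 columns for 1 library each, so no difference below has a replicate check and no test was run; every statement describes these libraries alone. Differences are given on the scale of log2(FPKM + 1), on which differences of weakly expressed genes come out too small. A gene was counted as higher or lower at a difference of at least 1 on that scale. This is a 2-fold change of FPKM + 1, and 2-fold has that meaning below. A gene whose FPKM ratio is slightly above 2 can therefore miss the line. Beside the counts of members past this line stands the share passing among all 14200 genes that reached 1 FPKM in 2 columns or more, under the same rule; 35 of the 48 members met that level, and a member can meet it through the groups where it is high.

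Signals of this family are carried by secreted dimers that bring together type I and type II receptor kinases. The type I receptor then phosphorylates receptor SMADs, Smad1, Smad5 and Smad9 for BMP signals and Smad2 and Smad3 for activin and TGF-beta signals. These bind the common partner Smad4 and enter the nucleus, while Smad6 and Smad7 are induced as feedback inhibitors. In the postnatal testis, BMP4 and activin are known to act on spermatogonia and on Sertoli cell proliferation.

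Whole-table measures bear on what follows. The smallest FPKM increments compared with those of P14 THY1 were 0.957 times as large in P12 THY1, up to 2.04 times in P0 OCT4-GFP, and 3.72 times in P7 THY1. If each increment is worth 1 fragment, larger increments mean fewer fragments. How 2 libraries became 1 column is not given, so that reading may not hold for the columns of 2 libraries, P7 THY1 among them. The P7 THY1 estimate also rests on 14.8% of 237 genes and is uncertain. The germ cell gene Ddx4 was highest in P14 THY1 (248 FPKM) and lowest in P0 THY1 (65.0 FPKM), so germ cell RNA was present in all groups. Markers of other testis cells were present beside it. Summed over 8 genes, fibroblast and stroma markers ranged between 26.2 FPKM in P7 ID4-GFP and 6789 FPKM in P0 THY1. Over 7 genes peritubular myoid markers ranged between 7.50 FPKM in P7 ID4-GFP and 1002 FPKM in P0 THY1. Sertoli markers, 11 genes, ranged between 95.1 FPKM in P7 ID4-GFP and 1337 FPKM in P12 THY1, and Leydig markers, 8 genes, between 3.13 FPKM in P7 ID4-GFP and 1129 FPKM in P7 KIT. P7 VASA THY1 cells, listed below beside the GFP-sorted groups, had Sertoli markers at 915 FPKM and so were unlike P7 ID4-GFP in this. In such bulk samples fewer cells of a type and less RNA per cell cannot be told apart.

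Ligands of the pathway were mostly low, and the ones at high level fell into different profiles. Of 27 ligand genes 8 reached 10 FPKM in at least 1 group and 8 stayed under 1 FPKM in all groups, and 18 of the 27 had their highest value in P0 THY1 cells, including the 8 under 1 FPKM. Only 16 of the 27 met the level filter, and no share over all genes without that filter is given here for the count of 18. Over all genes, P0 THY1 also had the highest median (5.05 FPKM) and the fewest genes at 0 (2332) of the groups. Of the 35 members at sufficient level 17 (48.6%) were highest there, against 21.8% of the 14200 genes. Bmp7, a BMP ligand made by many epithelia, was the ligand with the highest level in the GFP-sorted germ cells. It stood at 23.3 FPKM in P7 ID4-GFP, 22.6 FPKM in P7 OCT4-GFP, 21.8 FPKM in P0 OCT4-GFP and 16.1 FPKM in P7 VASA THY1 cells, at 19.9, 12.3 and 15.1 FPKM in KIT cells at P7, P12 and P14, and at 7.06, 11.2, 8.98 and 10.01 FPKM in THY1 cells at P0, P7, P12 and P14. Every GFP-sorted and KIT value lay above all of the THY1 values. Tgfb1, which encodes the TGF-beta 1 ligand, was also highest in a GFP-sorted group, at 15.4 FPKM in P0 OCT4-GFP cells, with 10.8 FPKM in P7 ID4-GFP, 9.85 FPKM in P7 OCT4-GFP and 4.71 FPKM in P7 VASA THY1 cells. KIT cells had 6.56, 4.39 and 1.99 FPKM of it at P7, P12 and P14 and THY1 cells had 7.65, 7.77, 7.10 and 3.11 FPKM at P0, P7, P12 and P14, so the lowest values were those of P14.

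The other isoforms of TGF-beta had a different profile. Tgfb2 stood at 0.220, 0.271, 0.266 and 0.317 FPKM in P7 ID4-GFP, P7 OCT4-GFP, P0 OCT4-GFP and P7 VASA THY1 cells, at 6.86, 6.82 and 0.407 FPKM in KIT cells at P7, P12 and P14, and at 15.4, 14.8, 11.2 and 1.70 FPKM in THY1 cells at P0, P7, P12 and P14. It was thus near the bottom of the scale in all 4 GFP and VASA groups and at P14. Tgfb3 had 0.386, 1.26, 0.990 and 6.35 FPKM in those GFP and VASA groups, 2.98, 4.91 and 1.42 FPKM in KIT cells and 27.2, 3.38, 12.2 and 3.63 FPKM in THY1 cells, in the same order of ages. The VASA THY1 library differed here from the GFP-sorted ones.

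Activin is a dimer of inhibin beta chains, and its chain genes differed from each other. Inhba, the beta A chain, stood at 0.138 FPKM in P7 ID4-GFP, 1.11 FPKM in P7 OCT4-GFP, 0.735 FPKM in P0 OCT4-GFP and 0.894 FPKM in P7 VASA THY1 cells. It had 6.93, 1.58 and 0.643 FPKM in KIT cells at P7, P12 and P14 and 35.6, 10.3, 5.52 and 3.34 FPKM in THY1 cells at P0, P7, P12 and P14, lower at each later age in both bead-enriched series. With 0.138 FPKM at its lowest and 35.6 FPKM at its highest, it had the widest range of the 48 members, 5.01 on the log2 scale. Inhbb, the beta B chain, had its highest value in P7 VASA THY1 cells, 26.9 FPKM, against 0.888, 4.85 and 2.94 FPKM in P7 ID4-GFP, P7 OCT4-GFP and P0 OCT4-GFP cells, 6.22, 6.91 and 0.726 FPKM in KIT cells and 10.4, 10.9, 17.4 and 1.16 FPKM in THY1 cells. Inhbc and Inhbe, beta chains known from liver, stayed at or below 0.253 and 0.273 FPKM.

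Among BMP and GDF ligands, Bmp4 and Gdf10 were high in P0 THY1 cells. Bmp4, a signal for germ cell formation and for spermatogonia, had 0.408, 0.716, 2.72 and 1.79 FPKM in the 4 GFP and VASA groups (P7 ID4-GFP, P7 OCT4-GFP, P0 OCT4-GFP and P7 VASA THY1), 3.89, 1.90 and 0.692 FPKM in KIT cells and 23.4, 6.09, 2.73 and 3.77 FPKM in THY1 cells. Gdf10, a BMP3-related ligand, had 4.31, 3.37, 2.21 and 1.15 FPKM in those GFP and VASA groups, 1.65, 1.07 and 0.441 FPKM in KIT cells and 21.4, 2.60, 1.98 and 1.52 FPKM in THY1 cells. Outside P0 THY1 it was highest in the P7 GFP-sorted cells, unlike Bmp4. Bmp1, which is named with the BMPs but encodes a protease that cuts procollagen and the BMP antagonist chordin, had 1.80, 3.93, 6.30 and 5.91 FPKM in the GFP and VASA groups, 13.1, 7.98 and 6.61 FPKM in KIT cells and 45.3, 14.0, 9.99 and 12.6 FPKM in THY1 cells. Bmp2 stayed under 10 FPKM, at most 0.334 FPKM in the 4 GFP and VASA groups, 4.72 FPKM in P7 KIT and 4.23 FPKM in P0 THY1 cells. Bmp6 stood between 1.30 and 5.82 FPKM in all groups. Bmp8a and Bmp8b, close copies whose reads may be shared and which in the mouse support spermatogenesis, did not exceed 1.80 and 2.26 FPKM, both in P7 THY1. Gdf1 ranged from 1.15 to 3.62 FPKM, Gdf11 from 1.29 to 4.20 FPKM and the stress-induced Gdf15 from 0.144 to 4.08 FPKM. Bmp5, Bmp3 and Gdf6 exceeded 1 FPKM only in P0 THY1 cells, at 3.35, 1.39 and 1.09 FPKM, and the oocyte factor Gdf9 reached 1.15 FPKM in P14 THY1. Bmp10, Bmp15, Gdf2, Gdf3, Gdf5 and Gdf7 stayed under 1 FPKM in all 11 groups, as did the beta chains Inhbc and Inhbe.

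**Figure D1:**
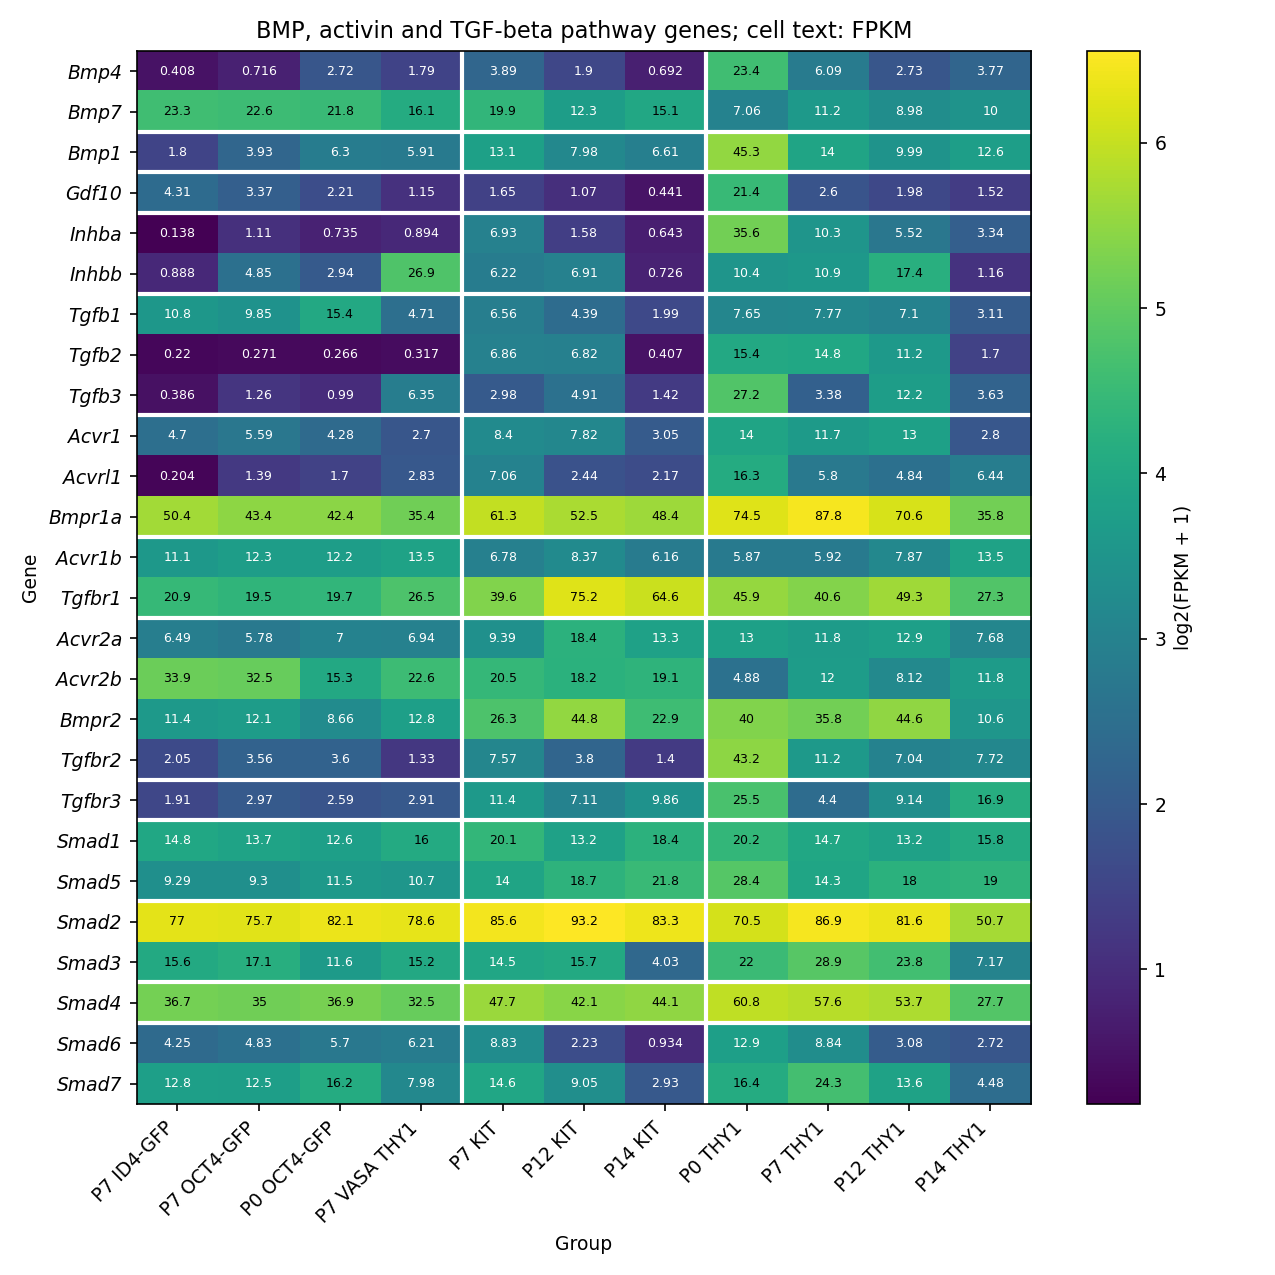
Levels of the 26 members that reached 10 FPKM in at least 1 group, with genes in rows grouped by role and the 11 groups in columns; colour gives log2(FPKM + 1) and the number in each cell is FPKM. Smad2, Bmpr1a and Smad4 are bright across all columns, whereas Inhba, Tgfb2 and Bmp4 are dark in the GFP-sorted columns and bright in P0 THY1.

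Receptor genes were expressed at higher levels than the ligands, 10 of 12 reaching 10 FPKM in at least 1 group. Bmpr1a, the main BMP type I receptor gene here, stood at 50.4, 43.4, 42.4 and 35.4 FPKM in P7 ID4-GFP, P7 OCT4-GFP, P0 OCT4-GFP and P7 VASA THY1 cells, 61.3, 52.5 and 48.4 FPKM in KIT cells and 74.5, 87.8, 70.6 and 35.8 FPKM in THY1 cells. It made up between 89.0% (P14 KIT) and 68.6% (P0 THY1) of the summed level of the BMP type I receptor genes Acvr1, Acvrl1, Bmpr1a and Bmpr1b. Acvr1, a BMP and activin type I receptor gene, had 4.70, 5.59, 4.28 and 2.70 FPKM in the GFP and VASA groups, 8.40, 7.82 and 3.05 FPKM in KIT cells and 14.0, 11.7, 13.0 and 2.80 FPKM in THY1 cells. Acvrl1 encodes ALK1, known from blood vessel endothelium. It had 0.204, 1.39, 1.70 and 2.83 FPKM in the GFP and VASA groups, 7.06, 2.44 and 2.17 FPKM in KIT cells and 16.3, 5.80, 4.84 and 6.44 FPKM in THY1 cells. Bmpr1b stayed between 0.798 and 3.90 FPKM.

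Tgfbr1, the TGF-beta type I receptor gene, was highest in the older KIT cells. It had 20.9, 19.5, 19.7 and 26.5 FPKM in the GFP and VASA groups, 39.6, 75.2 and 64.6 FPKM in KIT cells at P7, P12 and P14, and 45.9, 40.6, 49.3 and 27.3 FPKM in THY1 cells at P0, P7, P12 and P14. Acvr1b, the activin type I receptor gene, had 11.1, 12.3, 12.2 and 13.5 FPKM in the GFP and VASA groups, 6.78, 8.37 and 6.16 FPKM in KIT cells and 5.87, 5.92, 7.87 and 13.5 FPKM in THY1 cells. Its values in the 4 GFP and VASA groups and in P14 THY1 lay above those of all the remaining groups. Acvr1c, a further type I receptor gene, did not exceed 0.697 FPKM.

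The make-up of the type II receptor transcripts differed between the groups. Acvr2b, which encodes an activin and BMP type II receptor, stood at 33.9 FPKM in P7 ID4-GFP, 32.5 FPKM in P7 OCT4-GFP, 15.3 FPKM in P0 OCT4-GFP and 22.6 FPKM in P7 VASA THY1 cells. KIT cells had 20.5, 18.2 and 19.1 FPKM and THY1 cells had 4.88, 12.0, 8.12 and 11.8 FPKM. All GFP, VASA and KIT values lay above all THY1 values, as for Bmp7. Acvr2a, which also encodes a type II receptor, had 6.49, 5.78, 7.00 and 6.94 FPKM in the GFP and VASA groups, 9.39, 18.4 and 13.3 FPKM in KIT cells and 13.0, 11.8, 12.9 and 7.68 FPKM in THY1 cells. Bmpr2, the BMP type II receptor gene, had 11.4, 12.1, 8.66 and 12.8 FPKM in the GFP and VASA groups, 26.3, 44.8 and 22.9 FPKM in KIT cells and 40.0, 35.8, 44.6 and 10.6 FPKM in THY1 cells. Tgfbr2, the TGF-beta type II receptor gene, had 2.05, 3.56, 3.60 and 1.33 FPKM in the GFP and VASA groups, 7.57, 3.80 and 1.40 FPKM in KIT cells and 43.2, 11.2, 7.04 and 7.72 FPKM in THY1 cells. Of the summed level of these genes, Acvr2b made up 63.0% in P7 ID4-GFP cells and 4.83% in P0 THY1 cells, whereas Tgfbr2 made up 3.80% in P7 ID4-GFP and 42.7% in P0 THY1 cells. Tgfbr3, the co-receptor betaglycan that presents TGF-beta 2 and inhibin, had 1.91, 2.97, 2.59 and 2.91 FPKM in the GFP and VASA groups, 11.4, 7.11 and 9.86 FPKM in KIT cells and 25.5, 4.40, 9.14 and 16.9 FPKM in THY1 cells.

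**Figure D2:**
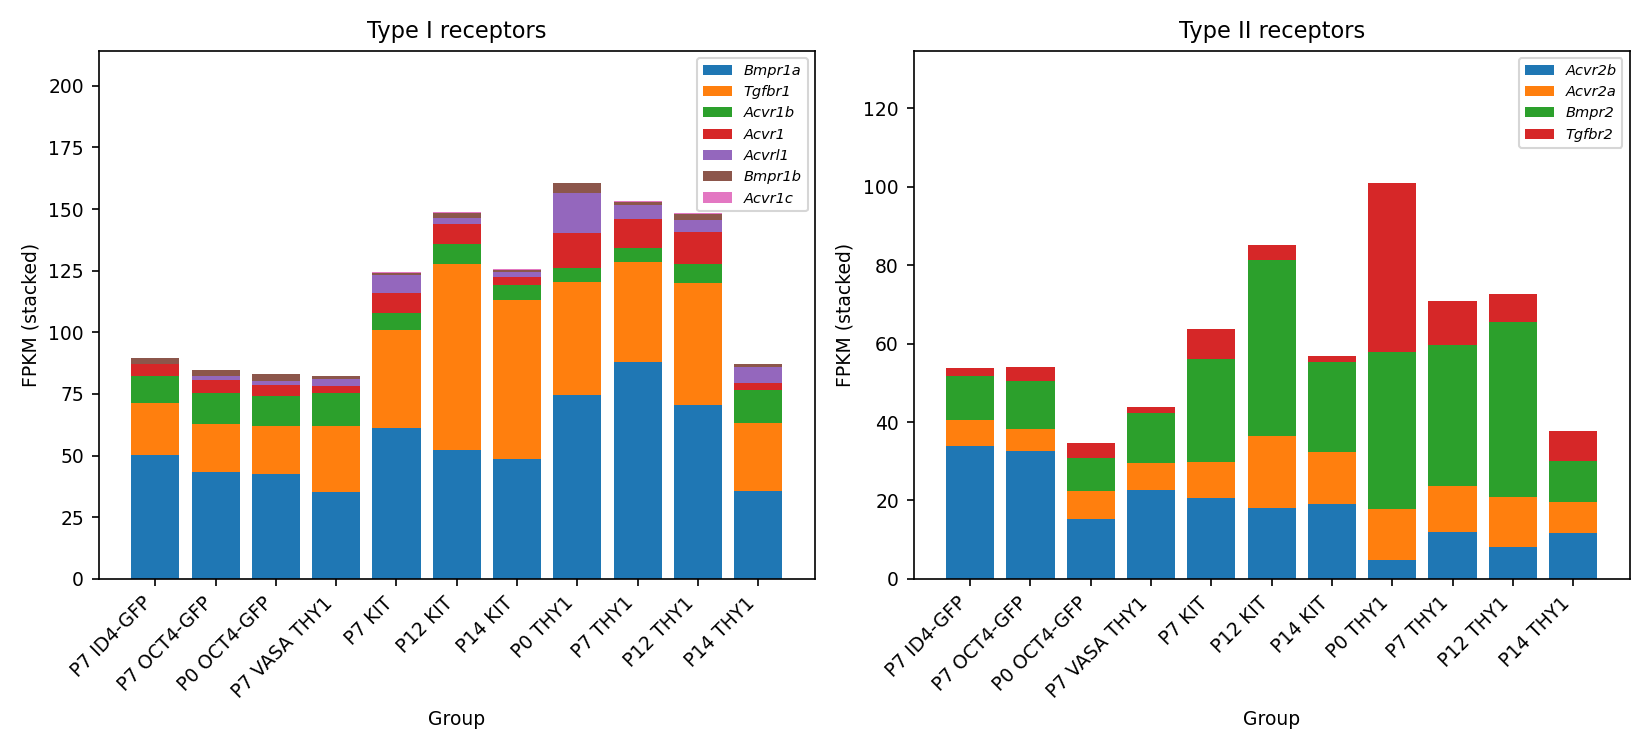
Stacked FPKM of the type I (left) and type II (right) receptor genes in the 11 groups, 1 value per group. Acvr2b is the largest type II segment in P7 ID4-GFP at 33.9 FPKM and the smallest in P0 THY1 at 4.88 FPKM, and the Tgfbr1 segment is largest in P12 KIT at 75.2 FPKM.

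Among the SMADs, those of the activin and TGF-beta branch were the most abundant, through Smad2. Smad2 had 77.0, 75.7, 82.1 and 78.6 FPKM in P7 ID4-GFP, P7 OCT4-GFP, P0 OCT4-GFP and P7 VASA THY1 cells, 85.6, 93.2 and 83.3 FPKM in KIT cells and 70.5, 86.9, 81.6 and 50.7 FPKM in THY1 cells. Smad3, its partner, had 15.6, 17.1, 11.6 and 15.2 FPKM in the GFP and VASA groups, 14.5, 15.7 and 4.03 FPKM in KIT cells and 22.0, 28.9, 23.8 and 7.17 FPKM in THY1 cells. Smad2 thus made up 95.4% of the Smad2 and Smad3 sum in P14 KIT and 75.1% in P7 THY1 cells, the highest and the lowest share. Smad4 had 36.7, 35.0, 36.9 and 32.5 FPKM in the GFP and VASA groups, 47.7, 42.1 and 44.1 FPKM in KIT cells and 60.8, 57.6, 53.7 and 27.7 FPKM in THY1 cells.

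Among the BMP receptor SMADs, Smad1 had a narrow range and Smad5 a wider one. Smad1 stood between 12.6 FPKM in P0 OCT4-GFP and 20.2 FPKM in P0 THY1 cells, a range of 0.64 on the log2 scale. Smad5 had 9.29, 9.30, 11.5 and 10.7 FPKM in the GFP and VASA groups, 14.0, 18.7 and 21.8 FPKM in KIT cells and 28.4, 14.3, 17.95 and 19.0 FPKM in THY1 cells, a range of 1.51 on the log2 scale, and Smad9 exceeded 1 FPKM only in P0 THY1, at 1.76 FPKM. The inhibitory SMADs were low at P14. Smad6, a feedback inhibitor of BMP signals, had 4.25, 4.83, 5.70 and 6.21 FPKM in the GFP and VASA groups, 8.83, 2.23 and 0.934 FPKM in KIT cells at P7, P12 and P14 and 12.9, 8.84, 3.08 and 2.72 FPKM in THY1 cells at P0, P7, P12 and P14. Smad7, which inhibits both branches, had 12.8, 12.5, 16.2 and 7.98 FPKM in the GFP and VASA groups, 14.6, 9.05 and 2.93 FPKM in KIT cells and 16.4, 24.3, 13.6 and 4.48 FPKM in THY1 cells. Smad3, Smad7 and Tgfb1 each had their lowest value in P14 KIT and their second lowest in P14 THY1 cells.

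The comparison of GFP-sorted germ cells with THY1 cells of the same age asks which of these transcripts accompany the sorted cells. Reporter gene, selection method and cell make-up differ together between the compared groups, so their parts cannot be told apart. At P0, 20 of 35 members differed by 2-fold or more between OCT4-GFP and THY1 cells, 2 higher and 18 lower in OCT4-GFP cells, against 33.1% of all genes (12% higher and 21.1% lower); the median difference was -1.05 over members and -0.07 over all genes. Higher were Bmp7 (difference 1.498) and Acvr2b (1.47), and Acvr1b and Tgfb1 missed the 2-fold line at 0.94 and 0.93. Lower were the ligand genes Inhba (-4.40), Tgfb3 (-3.82), Tgfb2 (-3.70), Gdf10 (-2.80) and Bmp4 (-2.71), the receptor genes Tgfbr2 (-3.26), Tgfbr3 (-2.88), Acvrl1 (-2.68), Bmpr2 (-2.08), Acvr1 (-1.51) and Tgfbr1 (-1.18), and Bmp1 (-2.67), with Smad5 (-1.23) and Smad6 (-1.05, but -0.81 and not past the line with quantile normalization) among the SMADs. The remaining lower members were Bmp2 (-2.16), Inhbb (-1.53), Gdf15 (-1.28) and Gdf11 (-1.18). Summed marker levels moved with this difference. Fibroblast and stroma markers stood at 57.2 against 6789 FPKM, peritubular myoid markers at 19.5 against 1002 FPKM, endothelial markers (7 genes) at 18.8 against 328 FPKM and germ cell markers (8 genes) at 1805 against 766 FPKM in OCT4-GFP and THY1 cells. Macrophage markers (8 genes) were close, at 189 against 202 FPKM. The part of these other cells in the member differences was not tested.

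At P7, 13 of 35 members differed between ID4-GFP and THY1 cells, 1 higher and 12 lower in ID4-GFP cells, against 21.5% of all genes (6.93% higher and 14.6% lower); the medians were -0.84 over members and 0.04 over all genes. Acvr2b was the higher one (1.42), with Bmp7 just under the line at 0.99. Among the lower ones were Tgfb2 (-3.69), Inhba (-3.31), Inhbb (-2.66), Acvrl1 (-2.50), Bmp1 (-2.42) and Bmp4 (-2.33), followed by Gdf15 (-2.14), Tgfbr2 (-2.00), Tgfb3 (-1.66), Bmpr2 (-1.57), Bmp2 (-1.22) and Acvr1 (-1.16). With quantile normalization Acvr1 (-0.93) no longer passed and the split was 3 higher and 11 lower. A pseudocount of 0.1 gave 20 members past the line, against 30.9% of all genes. Peritubular myoid markers stood at 7.50 in ID4-GFP against 154 FPKM in THY1 cells, fibroblast and stroma markers at 26.2 against 309 FPKM and Sertoli markers at 95.1 against 659 FPKM. Leydig markers stood at 3.13 against 117 FPKM and endothelial markers at 6.95 against 147 FPKM in the same pair, and the part of these cells was not tested. Set against P7 VASA THY1 instead, 6 members differed, 2 higher and 4 lower in ID4-GFP cells, against 9.49% of all genes. The VASA THY1 column is not a like-for-like replacement for P7 THY1. Its Sertoli markers were higher than in P7 THY1, at 915 FPKM. Lower were its peritubular myoid (43.2 FPKM), fibroblast and stroma (146 FPKM), Leydig (28.4 FPKM) and endothelial markers (18.4 FPKM).

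**Figure D3:**
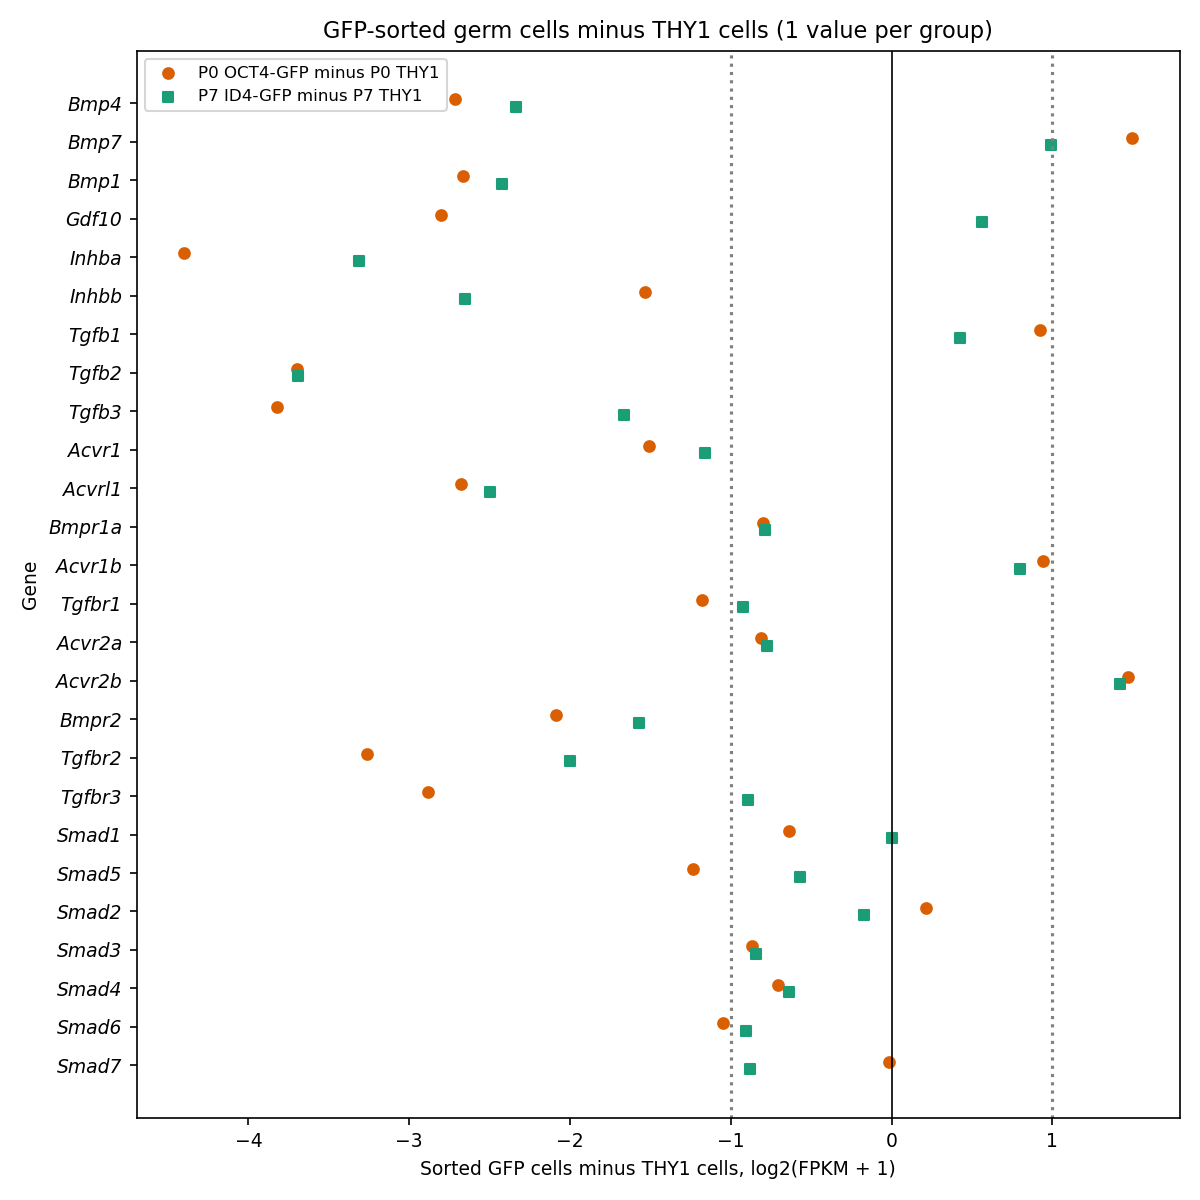
Differences of log2(FPKM + 1) between GFP-sorted and THY1 cells for the 26 members that reached 10 FPKM in a group; circles show P0 OCT4-GFP minus P0 THY1, squares P7 ID4-GFP minus P7 THY1, and dotted lines mark 2-fold. Acvr2b lies right of the upper line in both comparisons (1.47 and 1.42), and Inhba (-4.40 and -3.31) and Tgfb2 (-3.70 and -3.69) lie farthest left together.

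Between GFP-sorted groups the counts of members past 2-fold were close to the share of all genes. In P7 against P0 OCT4-GFP cells 2 of 35 members passed 2-fold, against 5.11% of all genes (2.11% higher and 3.01% lower): Acvr2b stood at 32.5 FPKM at P7 against 15.3 FPKM at P0 (1.04), and Bmp4 at 0.716 FPKM at P7 against 2.72 FPKM at P0 (-1.12). With quantile normalization the Acvr2b difference was 0.98 and no longer passed. In P7 ID4-GFP against P7 OCT4-GFP cells 1 of 35 did, against 2.75% of all genes (0.0211% higher and 2.73% lower), and that was Inhbb at 0.888 against 4.85 FPKM (-1.63). With a pseudocount of 0.1, 6 members were lower in ID4-GFP cells, against 8.48% of all genes in either direction. Inhba, for example, stood at 0.138 against 1.11 FPKM and Acvrl1 at 0.204 against 1.39 FPKM. Macrophage markers stood at 8.70 FPKM in ID4-GFP and 130 FPKM in OCT4-GFP cells, Leydig markers at 3.13 and 35.7 FPKM and Sertoli markers at 95.1 and 190 FPKM, and their part was not tested.

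The start regions of 4 members are shown as examples from both sides of the sorted-to-THY1 difference: the receptor genes Acvr2b and Acvr1b, higher in the sorted germ cells (Acvr1b by less than 2-fold), and the ligand genes Inhba and Tgfb2, which were near 0 there. Each is the 250 bases before the RefSeq transcription start in GRCm38.p6, 5′ to 3′ on the gene's strand; this build differs from the mm9 of the study, and the sequences are used for display only. Capitals mark the letters of 5 searched motifs on either strand, namely CAGAC and GTCTAGAC (SMAD-binding letters), GGCGCC and GCCGNCGC (GC-rich SMAD letters) and TATAAA.
Acvr2b (chr9:119401928-119402177, + strand): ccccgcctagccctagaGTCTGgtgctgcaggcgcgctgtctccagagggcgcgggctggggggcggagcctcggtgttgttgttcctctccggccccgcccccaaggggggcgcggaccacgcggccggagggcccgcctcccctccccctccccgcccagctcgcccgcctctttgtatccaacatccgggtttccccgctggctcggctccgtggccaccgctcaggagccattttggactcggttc
Acvr1b (chr15:101173822-101174071, + strand): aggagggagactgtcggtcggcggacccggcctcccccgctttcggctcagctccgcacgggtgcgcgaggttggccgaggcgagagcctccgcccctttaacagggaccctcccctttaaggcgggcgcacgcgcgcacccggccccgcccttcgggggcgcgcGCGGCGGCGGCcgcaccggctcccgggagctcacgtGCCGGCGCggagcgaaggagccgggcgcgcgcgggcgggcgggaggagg
Inhba (chr13:16011601-16011850, + strand): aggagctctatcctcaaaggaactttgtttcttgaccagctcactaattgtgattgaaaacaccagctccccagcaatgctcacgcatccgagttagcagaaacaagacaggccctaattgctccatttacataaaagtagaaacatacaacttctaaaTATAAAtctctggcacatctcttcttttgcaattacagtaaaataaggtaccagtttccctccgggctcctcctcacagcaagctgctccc
Tgfb2 (chr1:186705990-186706239, - strand): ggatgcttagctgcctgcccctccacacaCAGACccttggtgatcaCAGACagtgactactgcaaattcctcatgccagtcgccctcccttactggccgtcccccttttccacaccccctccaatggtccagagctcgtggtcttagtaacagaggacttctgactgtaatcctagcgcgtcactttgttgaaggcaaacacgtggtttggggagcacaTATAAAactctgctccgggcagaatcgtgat
The receptor windows were rich in G and C, 72.8% in Acvr2b and 78.8% in Acvr1b, against 43.2% in Inhba, 53.6% in Tgfb2 and a median of 52% over 27025 genes. Members that were lower in the sorted cells also had GC-rich windows, such as Acvr1 at 85.6% and Tgfbr1 at 74.8%, so the contrast holds for these 4 windows and not for both sides as a whole. The Acvr1b window held GCCGNCGC 3 times, 2 of them overlapping, and Acvr2b held CAGAC once on the opposite strand. Tgfb2 held CAGAC 2 times, and both ligand windows held TATAAA, 26 to 31 bases before the start in Tgfb2 and 86 to 91 bases before it in Inhba. Of all genes, 42.1% held CAGAC, 0.174% GTCTAGAC, 9.54% GGCGCC, 6.73% GCCGNCGC and 13.0% TATAAA in such a window. Among the 34 of 48 members with an entry, 14, 0, 5, 7 and 6 held them in the same order. These are matches of letters and say nothing of binding.

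The comparison of KIT with THY1 cells asks how these genes differ between the KIT and the THY1 preparation at each age. Both preparations also held markers of other testis cells. At P7, 4 of 35 members differed by 2-fold or more, against 5.13% of all genes (2.4% higher and 2.73% lower). Higher in KIT cells were Tgfbr3, at 11.4 FPKM in KIT against 4.40 FPKM in THY1 cells (1.20), and Bmp2, at 4.72 against 1.56 FPKM (1.16). Lower were Gdf15, at 1.35 against 4.08 FPKM (-1.11), and Tgfb2, at 6.86 against 14.8 FPKM (-1.003). Leydig markers stood at 1129 against 117 FPKM beside these differences, and their part was not tested. Set against P7 VASA THY1 instead, 9 members differed, 8 higher and 1 lower in KIT cells, against 9.77% of all genes.

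At P12, 4 of 35 members differed, against 9.52% of all genes (3.94% higher and 5.58% lower). Acvr2b was higher, at 18.2 FPKM in KIT against 8.12 FPKM in THY1 cells (1.07). The activin chain genes Inhba, at 1.58 against 5.52 FPKM (-1.34), and Inhbb, at 6.91 against 17.4 FPKM (-1.22), and Tgfb3, at 4.91 against 12.2 FPKM (-1.16), were lower in KIT cells. Sertoli markers stood at 521 against 1337 FPKM and peritubular myoid markers at 65.0 against 280 FPKM in the same columns. Leydig markers went the other way, at 233 in KIT against 88.3 FPKM in THY1 cells. The part of these cells was not tested.

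At P14, with 1 library on each side, 7 of 35 members differed, against 19.2% of all genes (6.76% higher and 12.5% lower). Higher in KIT cells were the receptor genes Tgfbr1, at 64.6 against 27.3 FPKM (1.21), and Bmpr2, at 22.9 against 10.6 FPKM (1.05). Lower were Tgfbr2, at 1.40 against 7.72 FPKM (-1.86), Bmp4 (-1.496), Inhba (-1.40), Acvrl1 (-1.23) and Acvr1b (-1.02). With quantile normalization 6 differed, 3 higher and 3 lower, against 17.7% of all genes, and Acvrl1 (-0.88) and Acvr1b (-0.85) no longer passed. With a pseudocount of 0.1 in place of 1, 13 differed, against 27.9% of all genes. Fibroblast and stroma markers stood at 350 in KIT against 1340 FPKM in THY1 cells and peritubular myoid markers at 11.9 against 78.7 FPKM. Leydig markers went the other way, at 667 in KIT against 186 FPKM in THY1 cells. The part of these cells was not tested.

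Across the ages, which share no library, 12 of 35 members were lower in KIT cells each time by any amount, against 21.8% of all genes, and 5 were higher each time, against 23.2%. The lower ones were the ligand genes Bmp4, Gdf10, Inhba, Inhbb, Tgfb1, Tgfb2 and Tgfb3, with Bmp1, Tgfbr2, Smad3, Smad6 and Smad7, although the Smad6 values at P7 were all but equal at 8.83 and 8.84 FPKM. The higher ones were Acvr2b, Bmp7, Gdf1, Gdf11 and Smad1, of which Smad1 at P12 was all but equal at 13.2 FPKM in each. No member was 2-fold lower or 2-fold higher at all 3 ages. Smad3 was 0.94, 0.57 and 0.70 lower on the log2 scale at P7, P12 and P14. Tgfbr1 and Acvr2a lay on different sides of 0 at different ages: their KIT minus THY1 differences were -0.04, 0.60 and 1.21 for Tgfbr1 and -0.30, 0.48 and 0.72 for Acvr2a.

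**Figure D4:**
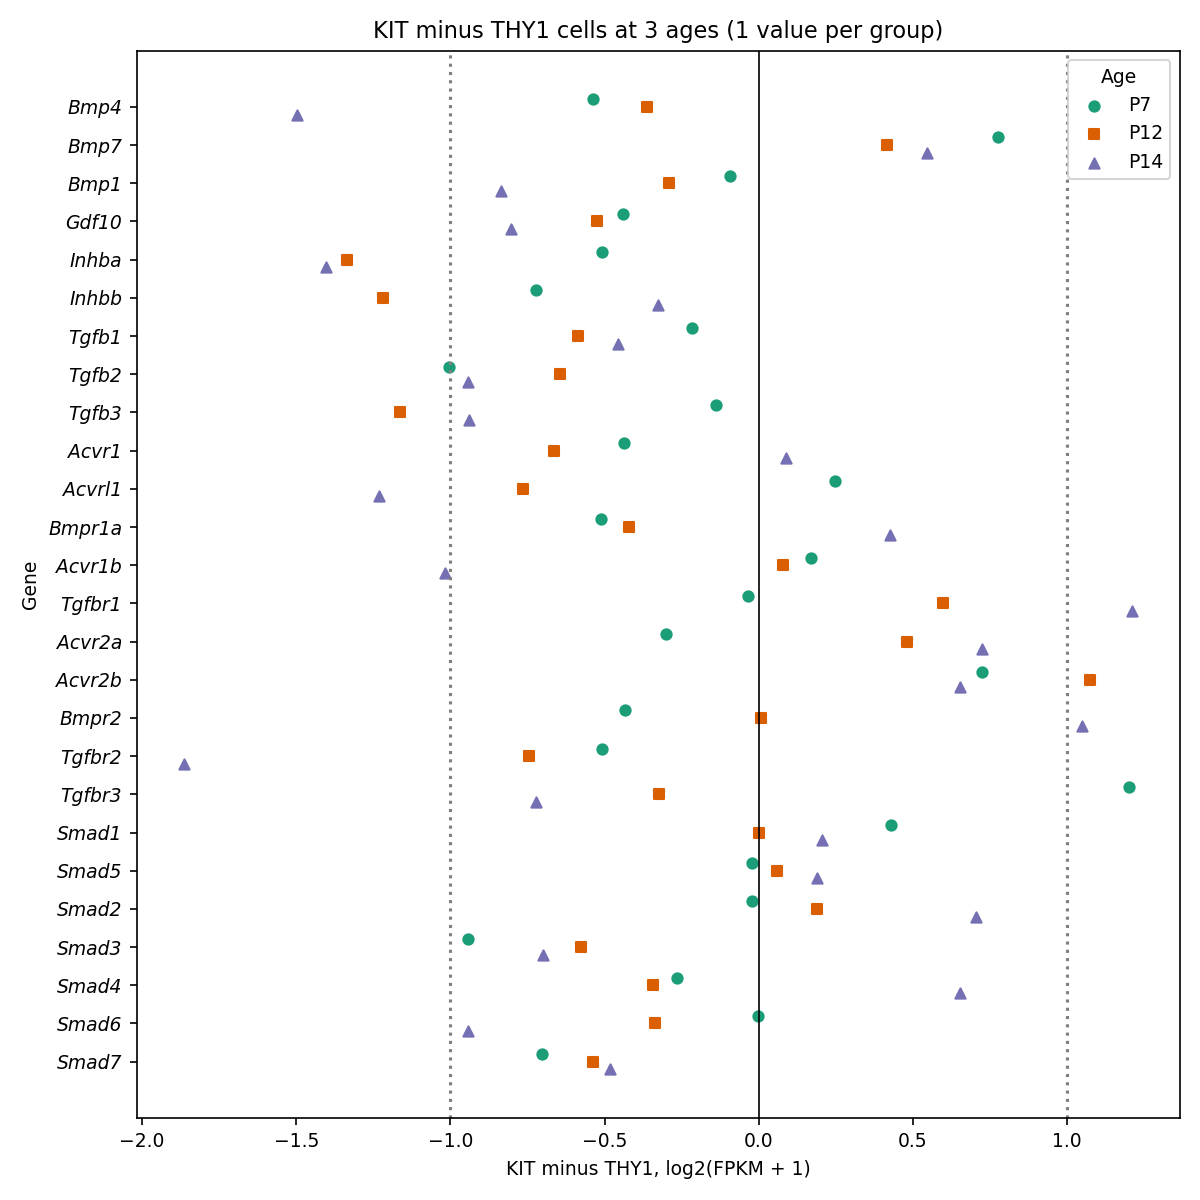
KIT minus THY1 differences of log2(FPKM + 1) at P7 (circles), P12 (squares) and P14 (triangles) for the 26 members that reached 10 FPKM in a group; dotted lines mark 2-fold. Acvr2b and Bmp7 lie right of 0 at all 3 ages, Inhba, Tgfb2 and Smad3 lie left of it, and Tgfbr1 moves from -0.04 to 1.21 with age.

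The THY1 series asks how the preparation differed with age. In P7 against P0 THY1 cells 11 of 35 members differed by 2-fold or more, 1 higher and 10 lower, against 22.3% of all genes (5.3% higher and 17% lower). Acvr2b was the higher one, at 12.0 FPKM at P7 against 4.88 FPKM at P0 (1.15). The lower ones were led by Tgfb3, at 3.38 against 27.2 FPKM (-2.68), Gdf10 (-2.63), Tgfbr3 (-2.30), Tgfbr2 (-1.86), Bmp4 (-1.78) and Inhba (-1.70), and the others were Bmp1 (-1.62), Acvrl1 (-1.35), Bmpr1b (-1.33) and Bmp2 (-1.03). Tgfb2, by contrast, was 14.8 FPKM at P7 and 15.4 FPKM at P0. Fibroblast and stroma markers stood at 309 FPKM at P7 against 6789 FPKM at P0, and their part was not tested. When P7 VASA THY1 stood for P7, 21 members differed, 4 higher and 17 lower, against 32.8% of all genes.

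In P12 against P7 THY1 cells 3 of 35 members differed, against 7.7% of all genes (5.49% higher and 2.22% lower): Tgfb3 was higher, at 12.2 against 3.38 FPKM (1.59), and Smad6, at 3.08 against 8.84 FPKM (-1.27), and Gdf15, at 1.13 against 4.08 FPKM (-1.26), were lower. Sertoli markers stood at 1337 FPKM at P12 against 659 FPKM at P7. In P14 against P12 THY1 cells 8 of 35 members differed, all lower at P14, against 27% of all genes, of which more were lower (15.2%) than higher (11.8%). They were Inhbb, at 1.16 against 17.4 FPKM (-3.09), Tgfb2 (-2.18), Bmpr2 (-1.98), Acvr1 (-1.88), Smad3 (-1.60), Tgfb3 (-1.51), Smad7 (-1.41) and Bmp8a (-1.16). Sertoli markers stood at 121 FPKM at P14 against 1337 FPKM at P12 and germ cell markers at 2671 against 1396 FPKM, and their part was not tested.

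Profiles of the members were set beside the summed marker levels by Pearson's r of log2 values over the 11 groups, as a description; the groups share animals' ages and selection methods and are not independent. Inhbb had its highest r with Sertoli markers (0.95), Inhba and Tgfb3 with peritubular myoid markers (0.93 each), Acvrl1 with endothelial markers (0.95), and Tgfbr3 and Bmp1 with fibroblast and stroma markers (0.93 and 0.92). Several lists were nearly tied: with endothelial markers r was 0.92 for both Bmp1 and Inhba. Bmp4 and Tgfbr2 followed peritubular myoid markers (0.88 each) and Tgfb2 endothelial markers (0.89). Opposite to these, Acvr2b and Bmp7 had r of -0.87 and -0.86 with peritubular myoid markers, and their highest r, with germ cell markers, was 0.40 and 0.24. The lowest r with germ cell markers, a list whose sum is highest at P14, were those of Smad6 (-0.89), Gdf10 (-0.80), Smad3 (-0.79) and Smad7 (-0.77). They were thus not confined to the inhibitory SMAD genes. Tgfb1 had r of -0.57 with germ cell markers and its highest r with macrophage markers (0.63). Tgfbr1 and Acvr2a had their highest r with Leydig markers (0.72 and 0.63). Smad2 (0.40 at most) followed none of the lists closely.

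**Figure D5:**
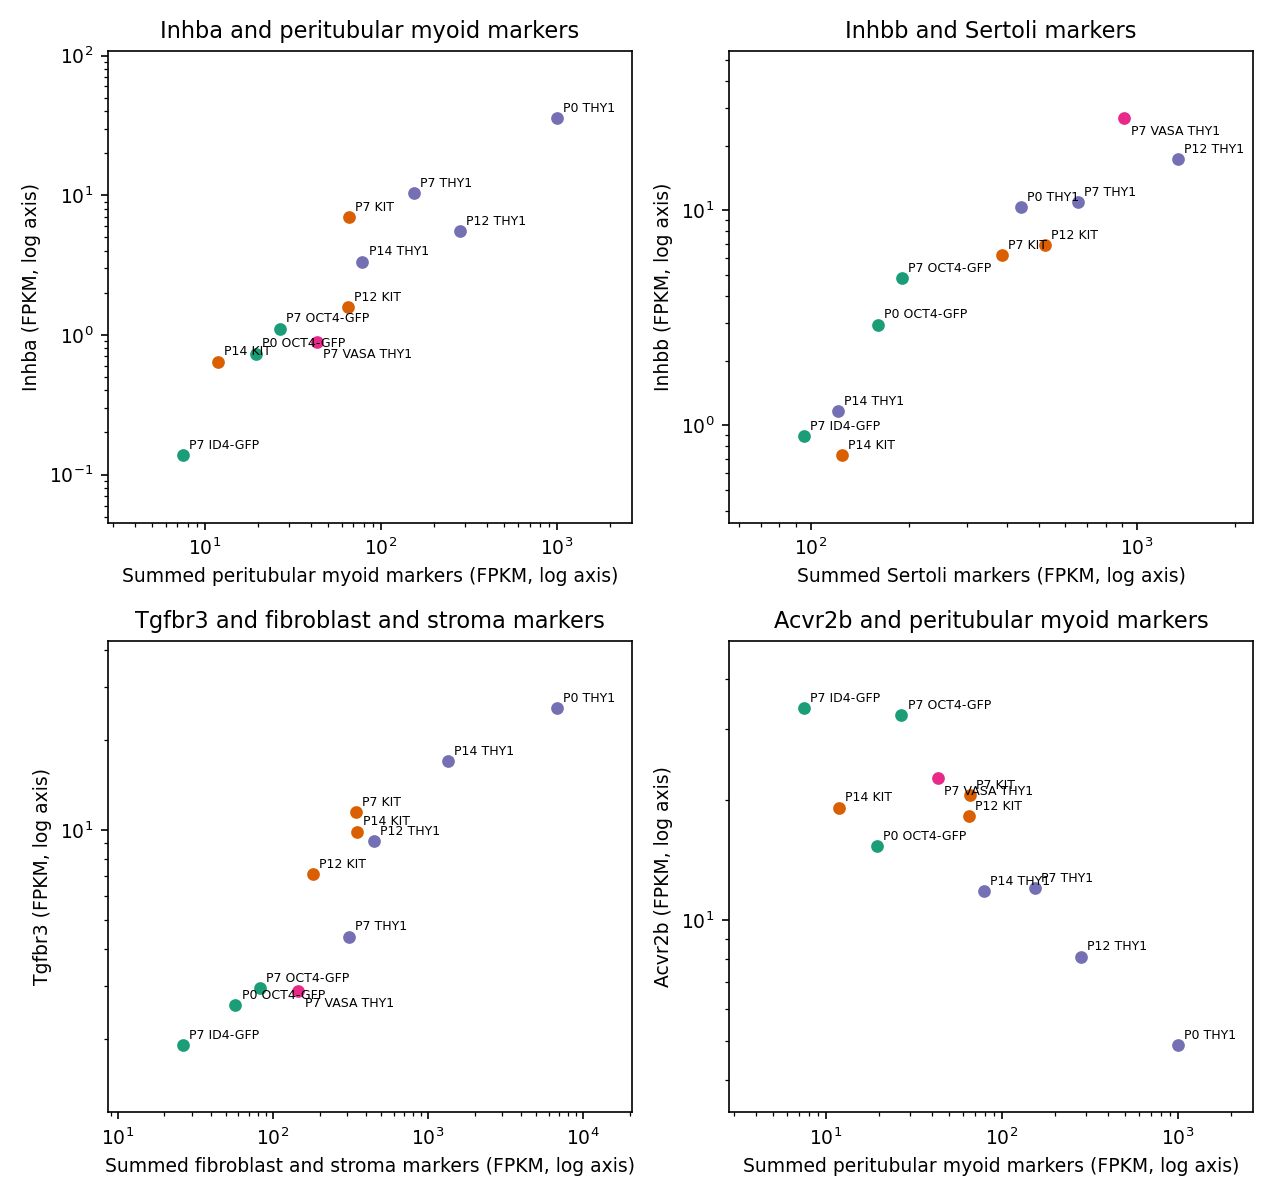
FPKM of Inhba, Inhbb, Tgfbr3 and Acvr2b (log axis) against the summed FPKM of a marker list (log axis) in the 11 groups; green points are GFP-sorted, pink VASA THY1, orange KIT and purple THY1 cells. Inhba, Inhbb and Tgfbr3 climb with the marker sum (r on log2 values 0.93, 0.95 and 0.93), and Acvr2b descends with the myoid sum (-0.87).

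The remaining genes of the pathway were described by lists, with members of the rule left out. Secreted antagonists, 11 of 18 at sufficient level, were mostly lower in the sorted cells: 9 of 11 in P0 OCT4-GFP against P0 THY1 cells and 7 of 11 in P7 ID4-GFP against P7 THY1 cells, with none higher. Of all genes 21.1% and 14.6% were lower in these comparisons, which are also the background for the lists that follow. The stromal, myoid and endothelial marker sums given above were lower in the same columns, and their part in the list counts was not tested. Dcn, a matrix proteoglycan that binds TGF-beta and also a stroma marker here, had 0.907 FPKM in P7 ID4-GFP against 73.6 FPKM in P7 THY1 cells, and Fstl1, a secreted follistatin relative, had 9.34 against 42.7 FPKM. Fst, which encodes the activin-binding follistatin, differed by -0.97 there, at 12.3 against 25.1 FPKM, and stood at 19.8 in P0 OCT4-GFP against 9.40 FPKM in P0 THY1 cells (0.998), just under the line. Htra1 and Nbl1 stood at 1.00 and 1.64 FPKM in P7 ID4-GFP against 49.5 and 17.5 FPKM in P7 THY1 cells. Between KIT and THY1 cells 1, 6 and 6 of 11 antagonists were lower in KIT cells at P7, P12 and P14, against 2.73%, 5.58% and 12.5% of all genes.

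Genes for the latency and activation of TGF-beta were lower in P0 OCT4-GFP than in P0 THY1 cells in 9 of 9, and in P7 ID4-GFP than in P7 THY1 cells in 7 of 9. Ltbp4, which stores latent TGF-beta in the matrix, had 0.589 FPKM in P7 ID4-GFP against 18.7 FPKM in P7 THY1 cells, and Thbs1, an activator, had 1.34 against 112 FPKM. Of 5 co-receptor genes 4 were lower in P0 OCT4-GFP than in P0 THY1 cells and 2 in P7 ID4-GFP than in P7 THY1 cells, among them the endothelial co-receptor gene Eng, at 0.750 against 15.1 FPKM at P7. SMAD cofactors and regulators varied less: of 14, 2 were higher and 1 lower in P0 OCT4-GFP against P0 THY1 cells, and 1 was higher and 1 lower in P7 ID4-GFP against P7 THY1 cells. Zfyve9, whose product SARA brings Smad2 and Smad3 to the receptor, was the higher one at P7, at 51.3 against 24.3 FPKM, and the corepressor gene Tgif1 the lower, at 12.4 against 55.4 FPKM.

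Genes known to be induced by SMAD signals, 10 besides Smad6 and Smad7, were counted as lower in 8 of 10 in P0 OCT4-GFP against P0 THY1 cells, where 21.1% of all genes were lower, and in 6 of 10 in P7 ID4-GFP against P7 THY1 cells, where 14.6% were. None passed the line as higher. Id1, a BMP target, had 4.10 FPKM in P7 ID4-GFP against 47.7 FPKM in P7 THY1 cells and Id3 had 3.23 against 86.0 FPKM. Ctgf, a TGF-beta target, had 0.430 against 144 FPKM. Atoh8, a BMP-induced transcription factor gene, was among those that did not pass, at 17.1 against 15.7 FPKM. Of the other ligands of the family, 4 of 10 were at sufficient level. Inha, whose product turns activin chains into inhibin, and Amh, both Sertoli genes counted among the Sertoli markers, stood at 3.38 and 3.30 FPKM in P7 ID4-GFP against 117 and 37.9 FPKM in P7 THY1 cells.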

How the data were processed

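RNA was measured in 16 libraries of mouse testis cells, which the table represents in 11 columns. The submitters' processing notes name CASAVA, TopHat2 2.0.9, Cufflinks 2.1.1 and the mm9 build, and the labels' protocols describe ribosomal depletion and directional libraries. The authors deposited FPKM; the annotation, any scaling between libraries and the way 2 libraries became 1 column are not given in the sources used here. The 8 bisulfite and 6 chromatin samples were not analysed here.

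Starting with those deposited values, log2(FPKM + 1) and its column differences for 10 comparisons came from pandas 2.3.3 and numpy 2.4.6 under Python 3.11.15, with figures by matplotlib 3.10.9. A difference of 1 on that scale was the size rule, applied to genes that reached 1 FPKM in 2 columns or more, and it was tested on simulated data. The steps of low values were read from genes under 0.05 FPKM. Alternatives were a pseudocount of 0.1, quantile normalization, at least 5 FPKM on the higher side, no filter, and the P7 VASA THY1 column in place of P7 THY1. Members, 6 pathway lists and 7 marker lists were chosen with earlier results of these data known. Members at 10 FPKM or more in at least 1 column were named with all values, the others by range. All 48 symbols matched RefSeq, and 34 had a start region there; the 4 printed were chosen after their values were seen. Lists name up to 4 genes by range, while Fst, Zfyve9, Id1 and Atoh8 were singled out after their values were seen. Low values are coarsest in P7 THY1 by the step estimate, and no counting interval could be given.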

Additional observations from a re-analysis of the deposited data

How the results depend on the processing

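Of 520 named member differences recomputed with a pseudocount of 0.1 or quantile normalization, 491 kept their side of the 2-fold line, 24 gained it, 5 lost it and 0 reversed; the 5 were Acvr1b and Acvrl1 in P14 KIT against THY1, Smad6 in P0 OCT4-GFP against THY1 (-0.81), Acvr2b in P7 against P0 OCT4-GFP and Acvr1 in P7 ID4-GFP against THY1 (-0.93), all under quantile normalization. With the pseudocount of 0.1 the number of members past 2-fold was 13 in place of 7 for P14 KIT against THY1 cells, 8 in place of 3 for P12 against P7 THY1 cells, 20 in place of 13 for P7 ID4-GFP against THY1 cells and 6 in place of 1 for P7 ID4-GFP against OCT4-GFP cells. With quantile normalization it was 5 for P12 against P7 THY1 cells (1 higher and 4 lower, in place of 1 and 2) and 1 in place of 2 for P7 against P0 OCT4-GFP cells (0 higher and 1 lower, in place of 1 and 1). The split was 3 higher and 11 lower in place of 1 and 12 for P7 ID4-GFP against THY1 cells. This scaling moved the median of all genes by 0.22 for P0 OCT4-GFP against THY1 cells and by 0.19 for P7 against P0 THY1 cells. Requiring 5 FPKM on the higher side it was 2 in place of 4 for P7 KIT against THY1 cells, 1 in place of 2 for P7 against P0 OCT4-GFP cells and 0 in place of 1 for P7 ID4-GFP against OCT4-GFP cells. With P7 VASA THY1 in place of P7 THY1 it was 9 in place of 4 for P7 KIT, 21 in place of 11 for P7 against P0 THY1, 7 in place of 3 for P12 against P7 THY1 and 6 in place of 13 for P7 ID4-GFP. The cause was not tested. All other counts stayed within 1.5 times. No paired analysis was possible because the table holds 1 value per group, with no replicate numbers. Leaving out single libraries was not possible for the same reason. The lowest levels may rest on few fragments, and the level at which this begins is not known because fragment counts are not given.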

Other observations

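Genes of the GDNF family, distant relatives of the TGF-beta ligands, differed in opposite directions between P7 ID4-GFP and P7 THY1 cells. Gdnf, the niche factor that Sertoli and peritubular cells supply to stem cells, stood at 0.110 FPKM in P7 ID4-GFP against 9.18 FPKM in P7 THY1 cells. Nrtn, a related ligand, stood at 7.65 FPKM in P7 ID4-GFP against 3.15 FPKM in P7 THY1 cells, and was higher in KIT than in THY1 cells at P7 (8.08 against 3.15 FPKM), P12 (4.97 against 1.94 FPKM) and P14 (8.73 against 4.27 FPKM). Gdnf was lower in KIT than in THY1 cells at P7 (6.05 against 9.18 FPKM) and P12 (3.68 against 7.30 FPKM) but higher at P14 (1.76 against 0.721 FPKM), and at P0 both genes were lower in OCT4-GFP than in THY1 cells (0.678 against 4.74 FPKM for Gdnf, 3.05 against 3.58 FPKM for Nrtn).

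The P7 VASA THY1 library held several Sertoli transcripts of this family at high level. Beside Inhbb, Amhr2, the receptor gene of anti-Mullerian hormone, stood at 76.1 FPKM there against 20.6 FPKM in P7 THY1 cells, and Amh at 46.1 against 37.9 FPKM. Inha stood at 105 against 117 FPKM and Gdnf at 1.64 against 9.18 FPKM, so not all of these genes were higher. Tgfb2 was 0.317 against 14.8 FPKM in the same pair of columns.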
